A study of Mus musculus with 9 samples.

Results

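Complement and coagulation are a pair of protease cascades of blood and tissue, and the genes described here encode their components, receptors and inhibitors. The set was given as 37 gene symbols, and a gene was kept if the platform annotation gave its symbol to a probe that 4 or more arrays detected at a p under 0.05. This left 20 genes, out of 10096 genes tested on the same arrays. A probe with the symbol was at hand for these 20 only, and all 20 passed the filter. C1ra, C1s, Colec12, C3, Cfi, C3ar1, C5ar1, Cd46, Clu, Vtn, F3, F5, F7, F2rl1, Procr, Tfpi2 and A2m were not analysed here.

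The RNA came from B16 tumours, a transplanted mouse melanoma, of C57/Bl6 mice aged 8 weeks, 14 days after inoculation. The 4 PC61 samples were from mice given PC61, an antibody to CD25 used to deplete regulatory T cells, and the 5 PBS samples were from mice given PBS. The labels give neither dose nor day of the injections, and they do not say whether each replicate is a separate mouse, so the p-values cover only how these samples varied, which may be technical variation. The comparison addresses the tumour environment after an antibody given to deplete regulatory T cells.

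In the classical pathway, C1q binds antibody or cell surfaces and its partner proteases cleave C4 and C2. The lectin pathway starts from sugar-binding proteins and the MASP proteases, and the alternative pathway from C3 itself with factor B and properdin. Most of these proteins are made by the liver, but in tissues C1q is a product of macrophages. In coagulation, tissue factor with factor VII starts the cascade that ends in thrombin. Tissue factor pathway inhibitor blocks that first step, and thrombomodulin turns thrombin into an activator of protein C.

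Between 18572 and 20742 probes were detected on each array. Foxp3, which marks regulatory T cells, averaged 8.73 ± 0.18 in PC61 (SD, n = 4) and 9.05 ± 0.24 in PBS (SD, n = 5) on the log2 intensity scale, with overlapping groups (limma adjusted p = 0.203), so a loss of these cells from the tumours is not shown by this probe. PC61 replicate 4 stood apart. Its mean over the 13 measured melanocyte genes, of which 3 fell and 1 rose, was -4.04 relative to the PBS mean (log2). The other PC61 arrays had -0.89, -0.26 and -1.41, and the PBS arrays -0.33 to 0.35. Keratinocyte, skeletal muscle, fibroblast and smooth muscle markers were higher on each PC61 array than on each PBS array except for keratinocytes, where PC61 replicate 2 (0.80) lay below PBS replicate 3 (0.92). In bulk tissue, fewer cells of a type and less RNA per cell cannot be told apart.

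Of the 20 genes, 4 rose in PC61 and 1 fell, at a Benjamini-Hochberg adjusted p under 0.05 in a limma fit over all 10096 genes. Thbd, the gene of thrombomodulin, Masp1, a lectin pathway protease, Cd55, the decay-accelerating factor, and Gas6, a ligand of the TAM receptors, were higher. Tfpi, the gene of tissue factor pathway inhibitor, was lower. The called share of 25% was close to that of all genes, of which 26.5% were called, 15.4% as higher and 11.2% as lower. The median log2 difference was 0.045 over the 20 genes and -0.051 over all genes. The groups did not overlap for 1 of the 20 genes, Thbd, while this held for 21.2% of all genes (11.3% higher in PC61 and 9.96% lower). With 1 array left out, the share of all genes called was 21.4%, 16.9%, 24.1%, 14.3% and 13.3% without PBS replicates 1 to 5, and 17.2%, 37.2%, 7.46% and 19.1% without PC61 replicates 1 to 4. Of the 20 genes, those called were then 2 without PC61 replicate 4 (C1qb and Thbd) and 1 without PC61 replicate 3 (Thbd). In the authors' deposited table, Masp1, Thbd, Gas6 and Tfpi passed its Benjamini-Hochberg value of 0.05 and Cd55 did not (0.0829), where 23.6% of the probes in that table passed.

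**Figure D1:**
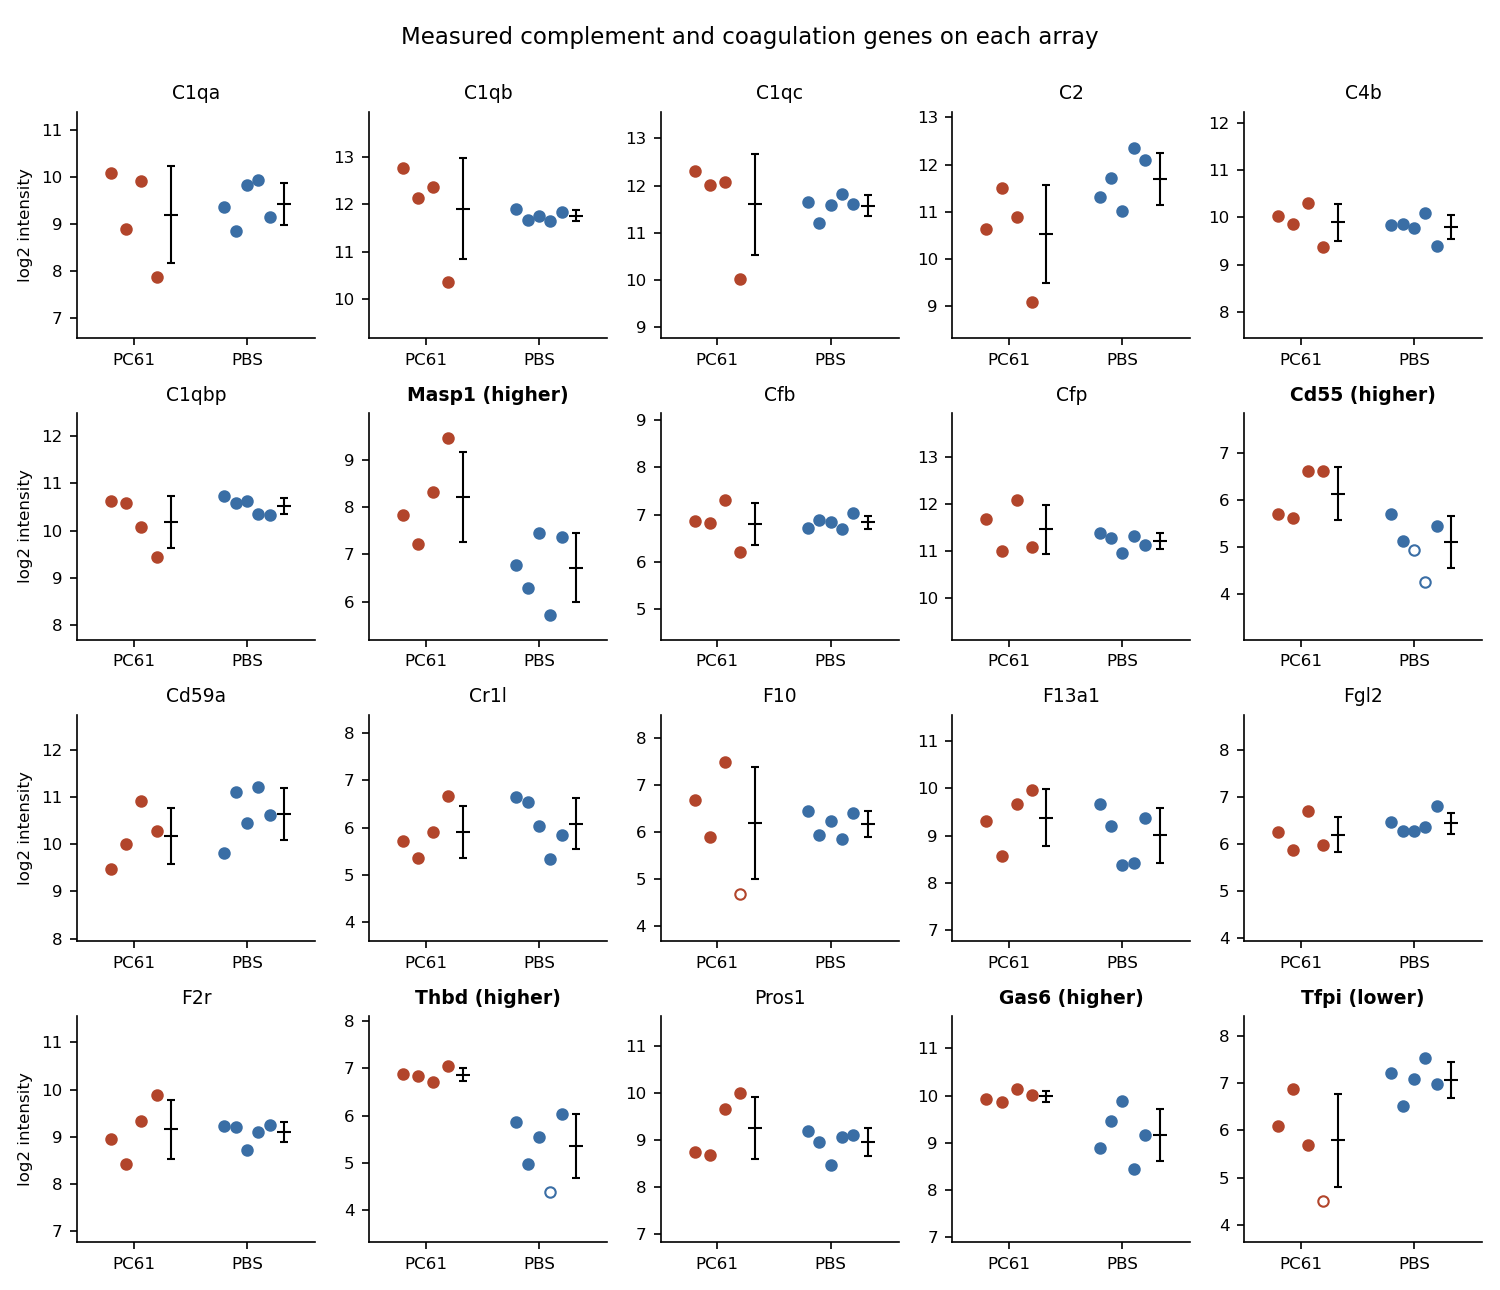
Normalised log2 intensity of the 20 measured genes on each array, with PC61 arrays on the left and PBS arrays on the right of each panel; every panel spans the same height, open circles are arrays with a detection p of 0.05 or more, and bars give mean and SD. The 4 PC61 values of Thbd lie between 6.71 and 7.05, above all PBS values, and PC61 replicate 4, the rightmost PC61 point, is the lowest point for C1qa, C1qb, C1qc and C2.

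Upstream sequences are shown for 2 of the C1q genes and for 3 of the called genes. RefSeq's promoter table (GRCm38.p6) held 16 starts of 14 of the 20 genes. The 250 bases before the start are printed 5′ to 3′ on the gene's strand. Capitals mark GAGGAA, a purine box of the kind that the myeloid factor PU.1 binds, GGGCGG, the GC box of Sp1, and TATAAA, the TATA box, each searched on both strands; in the sequences shown no motif overlaps another. C1qb and C1qc are shown as chains of one protein whose first 3 PC61 arrays were above all PBS arrays, and Cd55, Gas6 and Tfpi because they were called. No sequence is shown for the called genes Thbd and Masp1, nor for C1qa.
C1qb upstream (chr4:136886201-136886450, - strand): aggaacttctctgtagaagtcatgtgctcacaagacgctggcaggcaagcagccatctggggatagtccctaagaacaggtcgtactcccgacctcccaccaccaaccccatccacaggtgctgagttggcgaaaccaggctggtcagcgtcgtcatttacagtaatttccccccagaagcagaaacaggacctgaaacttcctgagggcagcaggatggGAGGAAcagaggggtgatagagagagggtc
C1qc upstream (chr4:136892915-136893164, - strand): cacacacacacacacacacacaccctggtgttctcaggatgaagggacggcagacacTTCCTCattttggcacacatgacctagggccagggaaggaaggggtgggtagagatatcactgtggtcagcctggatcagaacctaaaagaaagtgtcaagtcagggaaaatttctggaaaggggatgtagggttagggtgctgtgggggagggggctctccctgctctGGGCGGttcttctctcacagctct
Cd55 upstream (chr1:130462745-130462994, - strand): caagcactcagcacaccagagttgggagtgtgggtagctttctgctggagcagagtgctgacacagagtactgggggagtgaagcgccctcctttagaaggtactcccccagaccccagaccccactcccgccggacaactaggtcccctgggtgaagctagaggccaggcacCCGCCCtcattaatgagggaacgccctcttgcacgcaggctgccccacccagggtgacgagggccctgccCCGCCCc
Gas6 upstream (chr8:13494536-13494785, - strand): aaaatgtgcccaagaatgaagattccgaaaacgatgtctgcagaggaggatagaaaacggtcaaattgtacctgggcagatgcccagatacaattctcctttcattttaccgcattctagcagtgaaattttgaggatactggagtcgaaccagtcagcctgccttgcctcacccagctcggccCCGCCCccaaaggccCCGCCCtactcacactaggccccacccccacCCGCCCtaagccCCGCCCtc
Tfpi first start (chr2:84476760-84477009, - strand): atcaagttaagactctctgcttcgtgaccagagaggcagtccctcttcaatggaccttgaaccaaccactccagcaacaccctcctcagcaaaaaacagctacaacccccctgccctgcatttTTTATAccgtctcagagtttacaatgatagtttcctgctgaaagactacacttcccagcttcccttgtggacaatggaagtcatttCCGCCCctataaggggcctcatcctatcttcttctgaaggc
Tfpi second start (chr2:84474175-84474424, - strand): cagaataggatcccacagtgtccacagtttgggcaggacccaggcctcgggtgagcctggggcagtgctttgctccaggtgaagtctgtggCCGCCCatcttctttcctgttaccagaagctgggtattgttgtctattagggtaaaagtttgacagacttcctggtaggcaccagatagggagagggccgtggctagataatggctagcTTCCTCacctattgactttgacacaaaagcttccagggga

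GAGGAA or its reverse complement occurred before C1qb and C1qc and before the second Tfpi start, in 5 of the 16 starts of these genes and in 23.3% of the 32851 starts in the table. GGGCGG occurred in 8 of the 16 starts and in 32.7% of all. It was found 2 times before Cd55 and 4 times before Gas6, and 1 time before each Tfpi start. TATAAA occurred in 1 of the 16 starts, the first Tfpi start, and in 12.4% of all. That match was to the reverse complement, at position -127 from the start, so it is not taken to be a TATA box of Tfpi. These are matches of letters and say nothing of binding in these tumours.

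Of the 6 measured classical pathway genes 0 were called over all 9 arrays in limma (1, C2, at an unadjusted p under 0.05). Of all genes 26.5% were called, and 4215 of 10096 were at an unadjusted p under 0.05. PC61 replicate 4 was the lowest array for each of the 6 genes, and for 2851 of all 10096 genes. C1qb, the B chain of C1q, had log2 intensities of 12.77, 12.14, 12.37 and 10.36 in PC61 replicates 1 to 4. In PBS replicates 1 to 5 it had 11.90, 11.67, 11.76, 11.64 and 11.85. The first 3 PC61 arrays were thus above every PBS array and the fourth was below all of them. C1qc, the C chain, had 12.32, 12.02, 12.08 and 10.01 in PC61, against 11.65, 11.21, 11.59, 11.82 and 11.61 in PBS, which is the same arrangement. The A chain gene C1qa had 10.09, 8.90, 9.92 and 7.87 in PC61, against 9.36, 8.86, 9.82, 9.93 and 9.15 in PBS, and here PC61 replicates 2 and 3 lay within the PBS values. The C1q genes are neighbours on chromosome 4.

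The log2 differences were 0.15 (95% interval -0.73 to 1.02, adjusted p = 0.806) for C1qb, 0.034 (-0.86 to 0.93, adjusted p = 0.955) for C1qc and -0.23 (-1.15 to 0.70, adjusted p = 0.713) for C1qa in limma. Without PC61 replicate 4, C1qb was higher by 0.66 (adjusted p = 0.0349, where 19.1% of all genes were called), C1qc was at 0.57 (adjusted p = 0.0547) and C1qa at 0.22 (adjusted p = 0.642). With 75th percentile scaling the differences of C1qb and C1qc were -0.0036 and -0.12, so the direction over all 9 arrays depends on the scaling. With array weights, by which limma counts more variable arrays for less, C1qb was at 0.82 (adjusted p = 0.0103) and C1qc at 0.66 (adjusted p = 0.0251), where 44.5% of all genes were called.

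The mean of the 12 measured macrophage and monocyte genes, of which 0 were called, was also low on PC61 replicate 4, at -0.86 relative to the PBS mean. It was 0.23, -0.03 and 0.74 on PC61 replicates 1 to 3 and between -0.27 and 0.40 on the PBS arrays. The summed log2 level of this list ran from 12.8 to 14.1 in PC61 and from 12.9 to 13.6 in PBS. On PC61 replicate 4 C1qb was at -1.41, C1qc at -1.56 and C1qa at -1.55 relative to their PBS means. On PC61 replicate 1, where the macrophage list was at 0.23, C1qb was at 1.00, and on replicate 3, where the list was highest, C1qb was at 0.61. Other lists were low on PC61 replicate 4 too, with T cells at -1.14, blood endothelium at -0.40 and melanocytes at -4.04. The remaining lists were above their PBS means there. The T cell mean, of 6 measured genes, was 0.86, 0.01 and 0.54 on PC61 replicates 1 to 3 and -0.46 to 0.51 on the PBS arrays. The part of macrophage or other cell content in the C1q values was not tested.

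**Figure D2:**
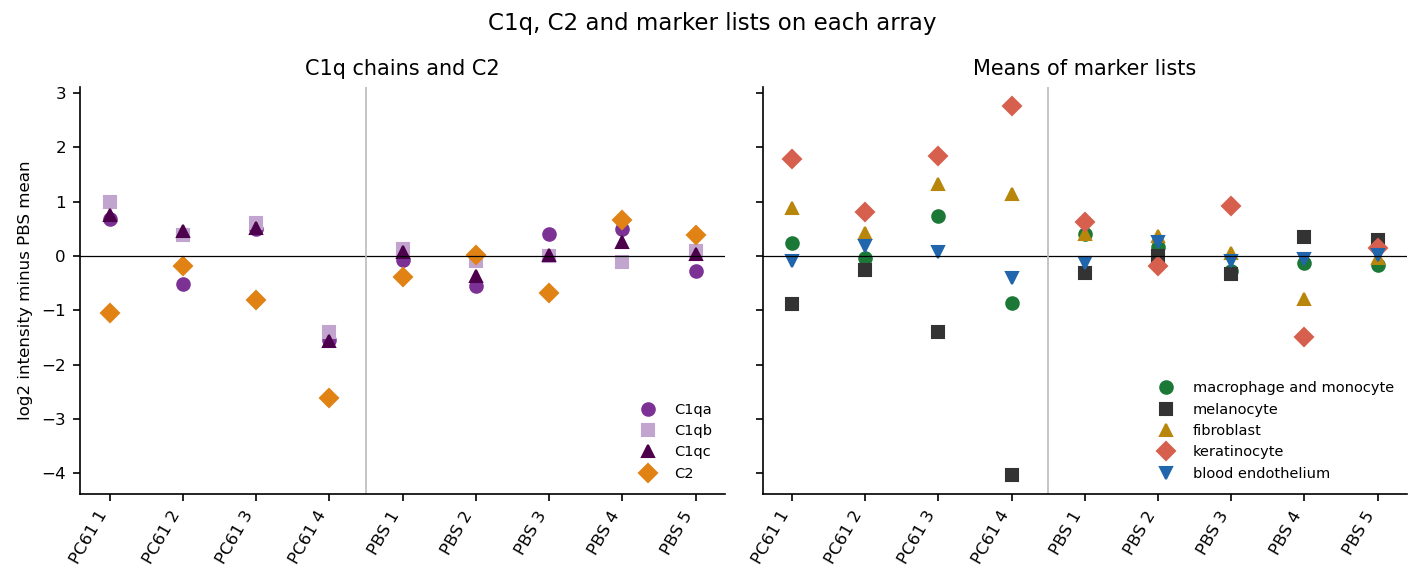
Log2 intensity minus the PBS mean on each array, for C1qa, C1qb, C1qc and C2 on the left and for the means of 5 marker lists on the right. On PC61 replicate 4 the C1q genes are at -1.41 to -1.56, C2 at -2.62, the macrophage list at -0.86 and the melanocyte list at -4.04.

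C2, the protease subunit of the classical C3 convertase, was below its PBS mean on all 4 PC61 arrays. It had 10.64, 11.51, 10.89 and 9.08 in PC61, against 11.31, 11.72, 11.02, 12.36 and 12.09 in PBS. PC61 replicates 1, 3 and 4 were below every PBS value, and replicate 2 lay among them. The difference was -1.17 ± 0.44 (SE), not past the threshold (limma adjusted p = 0.0705). It was past it with 75th percentile scaling (-1.32, adjusted p = 0.0431, with 28.1% of all genes called), with array weights (-0.98, adjusted p = 0.0101) and without PC61 replicate 2 (-1.50, adjusted p = 0.0198). Without PC61 replicate 4 the difference was -0.69 (adjusted p = 0.137). Relative to its PBS mean, C2 was at -1.06, -0.19, -0.81 and -2.62 on PC61 replicates 1 to 4. The melanocyte list was at -0.89, -0.26, -1.41 and -4.04 there. C2 and the list had the same order over the PBS arrays, both lowest on replicate 3 and highest on replicate 4. Within PC61 both were highest on replicate 2 and lowest on replicate 4, with replicates 1 and 3 in the other order. The part of melanocytes in the C2 difference was not tested.

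Cfb, the gene of factor B, is the neighbour of C2 in the major histocompatibility complex region of chromosome 17. It ran from 6.20 to 7.30 in PC61 and from 6.70 to 7.03 in PBS, a difference of -0.035 (95% interval -0.52 to 0.45). C4b, the gene of complement C4, lies in the same region and ran from 9.37 to 10.31 in PC61 and from 9.39 to 10.09 in PBS, a difference of 0.10 (-0.38 to 0.59). C4b shares much of its sequence with C4a, so one probe may not separate them. C1qbp, whose protein binds the heads of C1q and is found largely in mitochondria, was at -0.34 (-0.88 to 0.21). Cfp, the gene of properdin, which stabilises the alternative convertase, was at 0.25 (-0.28 to 0.77). The adjusted p-values of these genes ran from 0.326 for C1qbp to 0.917 for Cfb in limma.

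Masp1, the measured lectin pathway protease, rose 2.82-fold. Its log2 intensities were 7.84, 7.22, 8.33 and 9.47 in PC61, against 6.78, 6.29, 7.45, 5.72 and 7.36 in PBS. PC61 replicate 2 lay below PBS replicates 3 and 5, so the groups overlapped. The difference was 1.50 ± 0.46 (SE, limma adjusted p = 0.0363). It was 1.08 (adjusted p = 0.0728) without PC61 replicate 4. Of the 9 fits that left out 1 array, the call held only without PBS replicate 3 or PC61 replicate 2. Elsewhere the adjusted p reached 0.0906. Relative to its PBS mean, Masp1 was at 1.12, 0.50, 1.61 and 2.75 on PC61 replicates 1 to 4. The keratinocyte (1.79, 0.80, 1.84 and 2.76), skeletal muscle and smooth muscle means had the same order there. Over the PBS arrays Masp1 and the keratinocyte mean were both highest on replicate 3 and lowest on replicate 4. Their order differed for PBS replicates 1 and 5. The part of these cell types in the Masp1 difference was not tested.

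Of the membrane regulators, Cd55, which speeds the decay of C3 convertases, rose 2.05-fold. It had 5.70, 5.61, 6.62 and 6.61 in PC61, against 5.71, 5.14, 4.95, 4.26 and 5.44 in PBS. PC61 replicates 1 and 2 lay just below PBS replicate 1. The probe was dim and not detected on PBS replicates 3 and 4, so background limits its fold, and with an offset of 50 the log2 difference was 0.61. Cd55 met the filter of 4 arrays only through the PC61 arrays, where it was high. The difference of 1.03 ± 0.33 (SE, adjusted p = 0.0390) kept its call in 3 of the 9 fits that left out 1 array, those without PBS replicate 1, PC61 replicate 1 or PC61 replicate 2. The adjusted p was 0.116 without PC61 replicate 3.

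Cd59a, the inhibitor of the membrane attack complex, had 9.48, 10.01, 10.91 and 10.28 in PC61, against 9.82, 11.10, 10.45, 11.22 and 10.63 in PBS. The groups overlapped and the difference was -0.48 (95% interval -1.22 to 0.26, limma adjusted p = 0.306). Cr1l, the rodent regulator Crry, was at -0.17 (-0.87 to 0.54, adjusted p = 0.719), and its second, dimmer probe at 0.034 ± 0.22 (SE). With array weights Cd59a was called as lower (-0.91, adjusted p = 0.0243) and Cd55 was not called (0.58, adjusted p = 0.0673). Whether the regulators differ in their response was not tested.

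**Figure D3:**
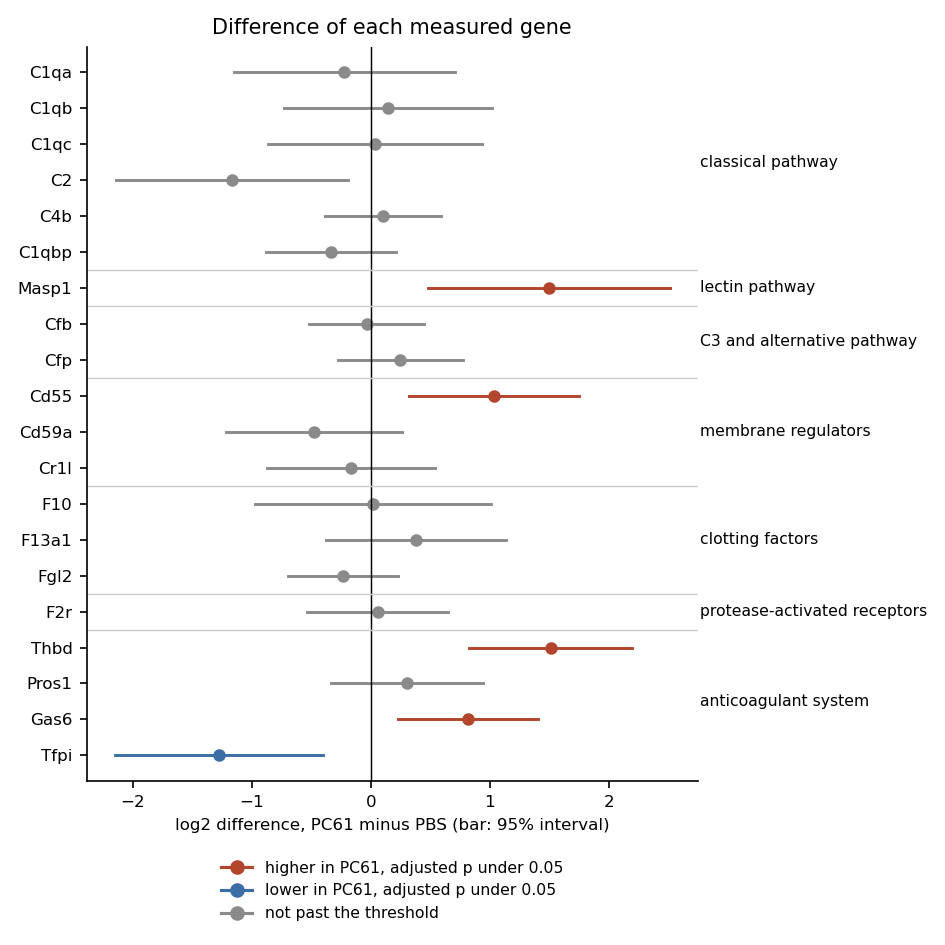
Log2 difference of each measured gene, PC61 minus PBS, with its 95% interval from limma, grouped by role; colours mark genes past an adjusted p of 0.05. Masp1, Cd55, Thbd and Gas6 are higher and Tfpi is lower, while the intervals of C1qa, C1qb and C1qc include 0.

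The clotting factors and the thrombin receptor were not called. F13a1, the A chain of factor XIII, which crosslinks fibrin and is also made by macrophages, had 9.32, 8.56, 9.68 and 9.96 in PC61, against 9.66, 9.20, 8.37, 8.42 and 9.37 in PBS. Its difference was 0.38 (95% interval -0.38 to 1.13, limma adjusted p = 0.430). F10, the gene of factor X, spread most among the 20 genes within PC61, with 6.68, 5.89, 7.49 and 4.69, and the last value was not detected. In PBS it had 6.44, 5.93, 6.23, 5.85 and 6.40. Its difference was 0.017 ± 0.45 (SE, limma adjusted p = 0.979).

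Fgl2, a fibrinogen-like protein with prothrombinase activity that regulatory T cells and macrophages also make, had 6.25, 5.87, 6.69 and 5.98 in PC61, against 6.46, 6.27, 6.28, 6.35 and 6.81 in PBS. Its difference was -0.24 (95% interval -0.70 to 0.22, limma adjusted p = 0.415). F2r, the thrombin receptor PAR1, had 8.96, 8.43, 9.34 and 9.89 in PC61, against 9.22, 9.20, 8.72, 9.10 and 9.26 in PBS. Its difference was 0.055 (-0.54 to 0.65, adjusted p = 0.894). For F10 and F2r, PC61 values lay both above and below the range of the PBS values. PC61 replicate 2 of F10 (5.89) and PC61 replicate 1 of F2r (8.96) lay within it.

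In the anticoagulant group 4 of 7 listed genes were measured, and 2 rose and 1 fell, where 26.5% of all genes were called; with so few genes nothing is read from that share. Thbd rose 2.85-fold. It had 6.89, 6.83, 6.71 and 7.05 in PC61, against 5.86, 4.98, 5.55, 4.37 and 6.03 in PBS. Each PC61 value was above each PBS value, and the PC61 arrays were close together (6.87 ± 0.14, SD, n = 4, against 5.36 ± 0.68, SD, n = 5, in PBS). The probe was not detected on PBS replicate 4. The difference was 1.51 ± 0.31 (SE, limma adjusted p = 0.0134), and it stayed past the threshold in all 9 fits that left out 1 array, at 1.26 to 1.68 (adjusted p from 0.00896 to 0.0427). With a background offset of 50, which shrinks dim values more, the difference was 0.98 (adjusted p = 0.0124).

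Thrombomodulin is a protein of endothelium and also of keratinocytes. The mean of the 9 measured blood endothelium genes ran from -0.40 to 0.18 in PC61 and from -0.13 to 0.26 in PBS, relative to the PBS mean, and 1 of them rose and 1 fell. The mean of the 10 measured keratinocyte genes ran from 0.80 to 2.76 in PC61 and from -1.49 to 0.92 in PBS, and 8 of them rose. PBS replicate 4, with the lowest keratinocyte mean, also had the lowest Thbd, Cd55, Masp1 and Gas6 values, and the lowest fibroblast (-0.79), smooth muscle (-0.54), skeletal muscle (-0.73), platelet (-0.82) and neutrophil (-0.75) means. The summed log2 level of the keratinocyte list was 15.8 to 17.2 in PC61 and 14.0 to 15.9 in PBS, and that of the endothelium list 10.8 to 11.9 in PC61 and 11.6 to 12.1 in PBS. Thbd and the keratinocyte mean were both highest on PC61 replicate 4 (7.05 and 2.76). Within PC61, Thbd was lowest on replicate 3 (6.71), where that mean was 1.84. Within PBS, Thbd was highest on replicate 5 (6.03), where that mean was 0.14. The part of the listed cell types in the differences was not tested.

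Gas6 had 9.92, 9.86, 10.13 and 10.02 in PC61, against 8.88, 9.46, 9.89, 8.44 and 9.16 in PBS. The PC61 arrays were again close together (9.98 ± 0.12, SD), and PBS replicate 3 was the single PBS array among them. The rise was 1.76-fold (0.82 ± 0.27, SE, log2, limma adjusted p = 0.0438), kept only without PBS replicate 3 or PC61 replicate 2 among the 9 fits that left out 1 array (adjusted p up to 0.112, without PC61 replicate 3). It was lost also with 75th percentile scaling (0.73, adjusted p = 0.0633). The mean of the 12 fibroblast genes was also higher in PC61 (0.43 to 1.33, against -0.79 to 0.41 in PBS), with 5 of the 12 called as higher. The smooth muscle and skeletal muscle means were higher too. Over the PBS arrays, Gas6 was highest on replicate 3 (0.72 relative to its PBS mean), where the fibroblast list was at 0.05. The list was highest on replicate 1 (0.41), where Gas6 was at -0.29. Both were lowest on PBS replicate 4. The summed log2 level of the fibroblast list was 14.5 to 15.5 in PC61 and 13.4 to 14.5 in PBS. The part of these cell types in the Gas6 difference was not tested.

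Pros1, the gene of protein S, which is a cofactor of activated protein C and a relative of Gas6, had 8.74, 8.68, 9.65 and 9.99 in PC61, against 9.20, 8.96, 8.47, 9.07 and 9.10 in PBS. PC61 replicates 3 and 4 were above all PBS values and replicates 1 and 2 among them, with a difference of 0.30 (95% interval -0.34 to 0.94, limma adjusted p = 0.459). The receptors of Gas6 and protein S were not called. Mertk was at 0.37 ± 0.19 (SE, adjusted p = 0.159), Axl at 0.17 ± 0.22 (adjusted p = 0.579) and Tyro3 at 0.26 ± 0.25 (adjusted p = 0.467).

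Tfpi fell to 6.09, 6.87, 5.69 and 4.51 in PC61, against 7.22, 6.51, 7.10, 7.54 and 6.98 in PBS. PC61 replicates 1, 3 and 4 were below all PBS values, replicate 2 was above PBS replicate 2, and the probe was not detected on PC61 replicate 4. Tfpi thus met the filter of 4 arrays only through the PBS arrays, where it was high. The difference was -1.28 ± 0.40 (SE, limma adjusted p = 0.0369). It was -0.85 (adjusted p = 0.0585) without PC61 replicate 4. Of the 9 fits that left out 1 array, the call held only without PBS replicate 2 or PC61 replicate 2, and elsewhere the adjusted p reached 0.0917. The melanocyte list, with means of -0.89, -0.26, -1.41 and -4.04 on PC61 replicates 1 to 4, had the same order over these 4 arrays as Tfpi, with -0.98, -0.20, -1.38 and -2.56 relative to its PBS mean. The order differed over the PBS arrays, where Tfpi was lowest on replicate 2 (-0.56) and the list was at 0.00 there. Among the PBS arrays both were highest on replicate 4, Tfpi at 0.47 and the list at 0.35. The part of melanocytes in the Tfpi difference was not tested. The melanocyte list's summed log2 level was 12.7 to 16.3 in PC61 and 16.1 to 16.7 in PBS.

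**Figure D4:**
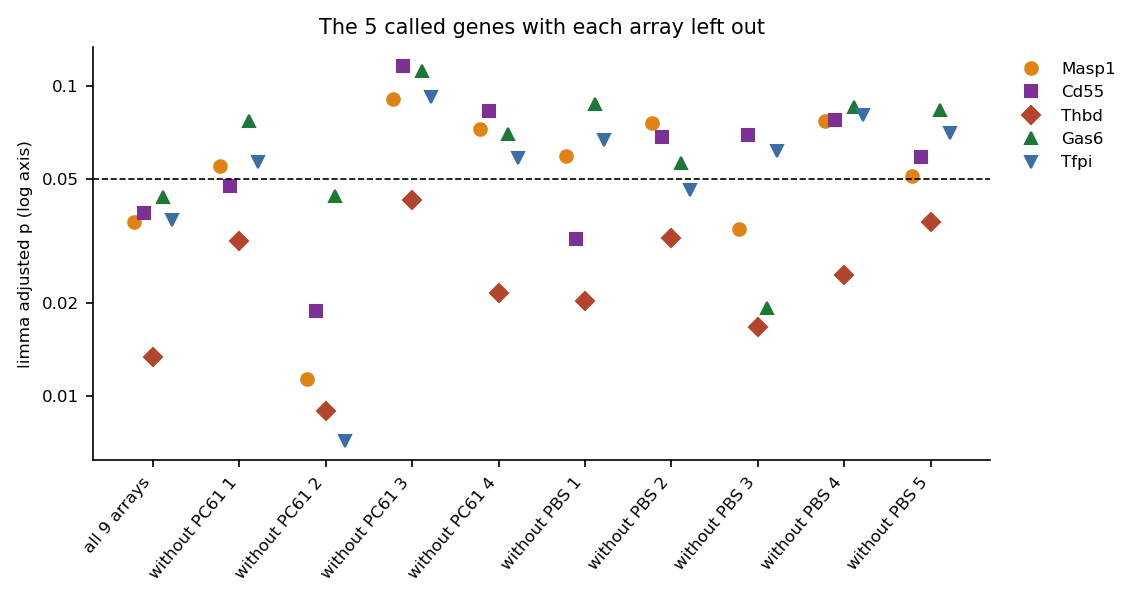
Limma adjusted p (log axis) of the 5 called genes over all 9 arrays and with each array left out; the dashed line is the threshold of 0.05. Thbd stays below the line in each fit, at most 0.0427, while Masp1, Cd55, Gas6 and Tfpi cross it in 6 or 7 of the 9.

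PC61 replicate 4 held the highest or lowest of the 9 values for 15 of the 20 genes, the lowest for 9 and the highest for 6. Over all genes tested PC61 replicate 4 held either extreme for 57.6%, the lowest value for 2851 of 10096 genes and the highest for 2960. It was the lowest array for the 6 classical pathway genes, Cfb, F10 and Tfpi, and the highest for Masp1, Cr1l, F13a1, F2r, Thbd and Pros1. Cfp, Cd55, Cd59a, Fgl2 and Gas6 had neither extreme there.

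Other genes of the same pathways were taken from lists of 37 complement and 53 coagulation genes. Of 11 measured complement genes, 0 rose and 1 fell, with 3 at an unadjusted p under 0.05 in limma. The called share was 9.09%, beside 26.5% of all genes, of which 4215 of 10096 were at an unadjusted p under 0.05. With so few genes nothing is read from that share. Cd93, an endothelial and myeloid surface protein once described as a C1q receptor, fell by 1.27 on the log2 scale in PC61, with 7.87, 7.89, 8.57 and 7.56 in PC61 against 8.85, 9.64, 8.11, 9.71 and 9.91 in PBS. The adjusted p of Cd93 was 0.0289, and among the 9 fits that left out 1 array the call was lost without PBS replicates 2, 4 or 5 and without PC61 replicates 1 or 4 (adjusted p up to 0.0692, without PBS replicate 5). C8g, a chain of the terminal component C8, was at -0.81 ± 0.28 (SE, adjusted p = 0.0516). Serping1, the C1 inhibitor, was at 0.83 ± 0.35 (adjusted p = 0.0996), and C8b, another chain of C8, at -0.39 ± 0.19 (adjusted p = 0.135).

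Of 21 measured coagulation genes, 5 rose and 2 fell, a called share of 33.3% beside 26.5% of all genes. Among those that rose were the 4 measured genes of platelet membrane glycoproteins, a subset singled out after its values were seen, with groups that did not overlap (15.4% of all genes were called higher and 11.3% were higher without overlap). Gp9, a subunit of the receptor for von Willebrand factor, had 10.55, 9.56, 10.96 and 11.18 in PC61, against 8.28, 8.57, 8.89, 6.01 and 7.45 in PBS, a 6.60-fold difference (2.72 ± 0.54, SE, log2, limma adjusted p = 0.0124). Gp1bb and Gp5, of the same receptor, were 2.80-fold and 2.51-fold higher, and Itga2b, the alpha chain of the platelet fibrinogen receptor, 2.05-fold higher (adjusted p between 0.0122 and 0.0126). Gp1bb was detected on 3 of 5 PBS arrays and Gp5 and Itga2b on 2 of 5, so background limits their folds. All of them were detected on the 4 PC61 arrays. Gp1bb, Gp5 and Itga2b thus met the filter of 4 arrays only through the group where they were high. With an offset of 50 the log2 differences were 0.95 for Gp1bb, 0.80 for Gp5 and 0.58 for Itga2b, against 1.49, 1.33 and 1.03. Pf4, a platelet granule chemokine, was at 0.25 (95% interval -0.60 to 1.09, adjusted p = 0.652), with 8.04, 8.44, 9.44 and 7.49 in PC61 against 8.58, 8.74, 7.82, 7.46 and 7.92 in PBS. The platelet content of the samples was not tested beyond these genes.

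Plat, tissue plasminogen activator, rose 2.23-fold, with 8.10, 8.21, 8.77 and 8.81 in PC61 and 7.81, 7.25, 7.56, 6.97 and 6.97 in PBS (limma adjusted p = 0.0137). Plat and the 4 platelet genes stayed past the threshold in all 9 fits that left out 1 array. Ggcx, the carboxylase that activates the vitamin K-dependent clotting factors, protein S and Gas6, fell by 0.89 on the log2 scale (adjusted p = 0.0491), and the call was lost in 7 of those 9 fits (adjusted p up to 0.142). Anxa5, which binds phosphatidylserine and slows clotting, fell by 0.49 on the log2 scale (adjusted p = 0.0381) and lost its call in 8 of the 9 (adjusted p up to 0.0999). Its values were 11.70 to 11.98 in PC61 and 12.17 to 12.38 in PBS, so the groups did not overlap. Vwf (0.60, adjusted p = 0.0683) and S100a10 (0.58, adjusted p = 0.0849) were not past the threshold.

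**Figure D5:**
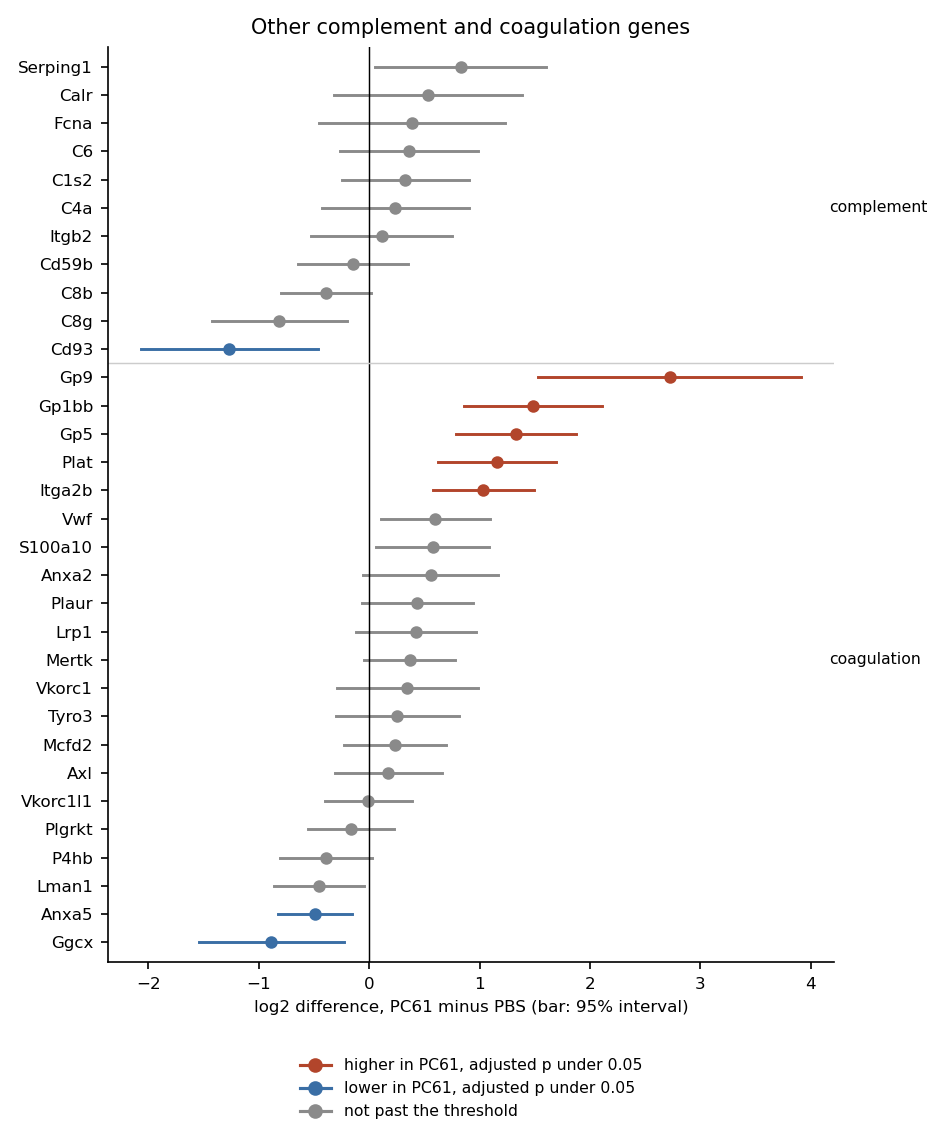
Log2 difference, PC61 minus PBS, of the other 11 complement and 21 coagulation genes measured, with 95% intervals from limma; colours mark genes past an adjusted p of 0.05. Gp9, Gp1bb, Gp5, Plat and Itga2b are higher, and Cd93, Ggcx and Anxa5 are lower.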

How the data were processed

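RNA of 9 B16 tumour samples was measured on single-colour Illumina BeadChips. The authors' raw table holds an intensity on a linear scale and, per the file headers, another measure, the detection p-value, for 45273 probes. The authors' second table holds quantile-normalized intensities. Per the file headers it also holds a ratio, a test score, a p-value and a column named for Benjamini and Hochberg. The sources used here do not give its test, the scanner or the export settings. The series value table equals it (largest difference 0).

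Values here start from the raw intensities. A detection p outside 0 to 1 removed 3 probes. Background was corrected by normexp from detection p-values with an offset of 16, and arrays were quantile normalized (neqc, limma 3.58.1, R 4.3.3). This shrinks folds of dim probes and hides shifts of most genes. Names came from the platform annotation of the authors' probes, updated by gene identifier through RefSeq; 14942 of 14950 listed probes had 1 symbol. The brightest detected probe stood for a gene. Of 20190 detected probes, 14906 were named, for 10096 genes. Groups from the sample titles were compared with lmFit and eBayes, two-sided, and a gene counted as called if its p, adjusted by Benjamini-Hochberg, was under 0.05. Errors of differences are standard errors of limma. The fit was tested on simulated data with independent normal noise of the same spread in both groups. Those data held no array standing apart as PC61 replicate 4 did, so the test does not cover that feature. The number of arrays limits the precision.

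The genes, lists and tests were chosen with earlier results of these data known. All measured genes of the set could be named. Other pathway genes were named if called with at least a 2-fold change. Of the remaining genes of each list, those with the 3 smallest p were named. Further genes, such as the TAM receptors, Pf4 and S100a10, were named outside that rule after their values were seen. Alternatives were cyclic loess, 75th percentile scaling, an offset of 50, the authors' normalized values, 3 other filters, the mean of probes, array weights, the replicate number as a block and leaving out each array. Upstream sequences are from RefSeq.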

Additional observations from a re-analysis of the deposited data

Results flagged for a closer look

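C1qc on PC61 replicate 4 was at 10.01, far from the other PC61 arrays (12.02 to 12.32), and the gap to the nearest was 0.870 of the group's range, above Dixon's 95% critical value for 4 samples. It was the only value so marked in 40 tests, 1 for each of the 20 genes in each group, where chance marks about 1 in 20 groups. C1qb (10.36 against 12.14 to 12.77) was low on the same array and did not pass that limit.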

How the results depend on the processing

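Over 9 arrays the call of Thbd was kept in every fit in which the gene was tested except that with the replicate number as a block; it is not among genes detected on all 9 arrays. Leaving out 1 array gave 1 to 4 genes called higher, 0 to 2 called lower and 5 to 11 other pathway genes called. Requiring detection on all 9 arrays kept 16 of the 20 genes, with 2 called higher and 0 lower in limma (3 at an unadjusted p under 0.05), and 4 of 25 other pathway genes, where 23.7% of all genes were called. The number called lower was 2 with 75th percentile scaling and 3 with array weights, with which 14 other pathway genes were called. With the replicate block limma called 0 higher, 0 lower and 0 other pathway genes, and 0 of all genes (3049 at an unadjusted p under 0.05, of them 5 of the 20 genes and 8 other pathway genes); Thbd was at 1.68 (adjusted p = 0.105). In that fit PBS replicate 5 has no partner and adds nothing to the difference. The block pairs samples that share only a number: deviations of same-numbered samples correlated at -0.24, 0.011, 0.0037 and -0.33, and 0 of the 4 PC61 samples correlated best with the PBS sample of their own number. The signs that changed belonged to genes that were not called: Cfb (0.079 with cyclic loess, 0.034 with array weights, 0.014 with the block), C1qb (-0.0036), C1qc (-0.12), C4b (-0.013) and F2r (-0.011) with 75th percentile scaling, and C1qa (0.57), C1qbp (0.0094), F2r (-0.18) and Pros1 (-0.14) with array weights. Leaving out 1 array gave -0.52 to 0.22 for C1qa, -0.14 to 0.66 for C1qb, -0.20 to 0.57 for C1qc, -0.034 to 0.28 for C4b, -0.20 to 0.17 for Cfb, -0.42 to 0.016 for Cr1l, -0.42 to 0.52 for F10 and -0.19 to 0.30 for F2r. The cause of these changes was not tested. Cyclic loess moved the median of all genes by 0.11 and called 1831 genes higher and 858 lower, against 1552 and 1127. The count over all genes was 2679, and ran from 753 without PC61 replicate 3 to 3754 without PC61 replicate 2; it was 4497 with array weights. Cd55 lost its call with the authors' normalized values (adjusted p = 0.0813) and with array weights (adjusted p = 0.0673). Ggcx lost its call with an offset of 50 (adjusted p = 0.0507), with array weights (0.0502) and with detection on all 9 arrays (0.0503). It lost it also with cyclic loess (0.0671), the authors' normalized values (0.0501) and the mean of probes (-0.73, adjusted p = 0.0604). Anxa5 lost its call with cyclic loess (-0.35, adjusted p = 0.128). Dim probes near background limit the folds of Cd55, Thbd, F10 and Tfpi.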
